A study of Mus musculus with 32 samples.

Results

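Cell cycle genes were examined in mouse tumour-associated macrophage preparations, as a fixed set of 48 genes named by symbol and grouped by role. The set holds 17 genes of S phase, 23 of G2 and mitosis, 6 of entry into the cycle from G1, and 2 inhibitors of cyclin-dependent kinases (CDKs). Of the 48, 47 were measured on the HT_MG-430_PM chip and 46 on the Mouse Gene 2.0 ST chip, out of 17097 and 22180 genes. Ccnb1, a B-type mitotic cyclin, had no probe set with a single gene symbol on either chip, and Ccne2 had none on the second. Each gene was read from its probe set of highest mean, as a log2 signal on which a difference of 1 is a change by a factor of 2. After a filter on low values, 47 members were tested between tumour models, 46 between Myd88-/- and WT hosts and 45 in sorted cells. The members left out were Ccne2 between hosts and Birc5, the inhibitor of apoptosis survivin, in sorted cells.

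The 32 arrays came from 3 experiments. CD11b+ cells were enriched on magnetic beads from spontaneous neuroblastomas of Th-MYCN transgenic mice (3 arrays) and from EG7 thymomas transplanted into WT mice (3 arrays). EG7 is a transplantable tumour line of T-lymphocyte origin, so its own RNA carries T-lineage transcripts. In the next experiment CD11b+ cells were enriched from EG7 tumours of WT hosts and of Myd88-/- hosts (5 arrays each). Myd88 is the adaptor of most Toll-like receptors and of the interleukin-1 receptor family. In the last experiment population A (CD11b+, Ly6G-, Ly6C+, MHCII-) and population C (CD11b+, Ly6C-, MHCII+) were obtained from EG7 tumours by flow sorting. The hosts were WT, TNFR1-/-, Myd88flox/flox with Tie2-Cre, or TNFR1-/- with Myd88flox/flox and Tie2-Cre (2 arrays per population and genotype). TNFR1, encoded by Tnfrsf1a, is a receptor for tumour necrosis factor. Tie2-Cre is active in endothelium and in blood-forming cells, so Myd88 was deleted in both, while the transplanted tumour cells kept their own alleles in all EG7 groups. The hosts with both deletions are called the combined knockout here and are marked double in the plots. Nothing in the labels ties each array to an animal of its own, and the p-values therefore measure the spread between these arrays only, which may be technical. The labels give no host age.

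Cells that enter the cycle first raise D-type and E-type cyclins, which release E2F transcription factors and switch on the genes for nucleotide supply, origin loading and DNA synthesis. Genes of G2 and mitosis come later, through the DREAM and B-MYB-FOXM1 complexes at CHR elements of their promoters and NF-Y at CCAAT boxes, and encode cyclins, checkpoint kinases and spindle proteins. Macrophages in tumours are replenished from blood monocytes and can also divide locally, and dividing tumour cells in the same preparation express the same genes. In bulk preparations a lower signal of a gene can come from fewer cells that express it or from less RNA per cell, and these cannot be told apart.

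Macrophage markers were well measured in every experiment, with all 12 measured members of a list of 14 above the 40th percentile of the array in the bead-enriched cells and in population C, and 11 or 12 in population A. The list's mean was 10.08 to 10.37 in C and 8.19 to 9.89 in A. Ly6c2, which encodes the sorting marker of A, read 11.31 to 12.93 in A and 7.88 to 9.99 in C. Within each experiment Myd88 was lower on every array of Myd88-deleted cells than on any array with intact Myd88. It read 7.47 to 7.83 in Myd88-/- hosts against 8.11 to 8.57 in WT hosts. In A it read 7.84 and 7.70 in the Myd88flox/flox Tie2-Cre hosts and 7.78 and 8.32 in the combined knockout, against 9.46 to 10.03 in the other hosts. Tnfrsf1a overlapped between groups: in A it read 7.51 and 7.59 in TNFR1-/- hosts and 7.69 and 8.20 in the combined knockout, against 7.95 to 8.30 with intact TNFR1. The sources used here do not place its probes relative to the deleted part of the gene, and it therefore gives no check of the label.

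Among sorted cells, some cell cycle genes were lower in population A than in population C and a few were higher. Averaged over the 4 genotypes, 11 of 45 members were lower in A and 2 were higher, with 8 arrays against 8. Over all 16524 genes tested, 21.3% were lower and 11.1% higher, so the share of members that were lower was close to that of all genes. By role, 6 of 17 S phase genes, 2 of 21 mitotic genes and 3 of 5 G1 genes were lower. The median difference was -0.21 for S phase, -0.07 for G2 and mitosis and -0.14 over the 45 members, against 0.01 over all genes tested.

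The S phase genes that fell included Pcna, the sliding clamp of DNA polymerases. Pcna read 8.35 to 9.23 in A, with a lowest value in the TNFR1-/- hosts, and 9.20 to 9.46 in C. All arrays but 1 of A lay below every array of C, and the difference was -0.53 ± 0.09 (SE, adjusted p = 0.00037). Mcm3, a subunit of the replicative helicase, differed by -0.60 ± 0.11 (adjusted p = 0.00103), Cdt1, which loads that helicase, by -0.40 ± 0.09 (adjusted p = 0.00478) and Gins2, a cofactor that activates it, by -0.42 ± 0.10 (adjusted p = 0.0058). Mcm3 was near background in part of A, with a mean of 4.84 in TNFR1-/- hosts, below the 40th percentile of those arrays (5.08 and 5.04). The remaining S phase genes that passed were Rrm1, the large subunit of ribonucleotide reductase, and Pola1, the catalytic subunit of DNA polymerase alpha. Mcm5, another helicase subunit, was not called, at -0.18 ± 0.10 (adjusted p = 0.208).

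Of the mitotic genes, Bub1b and Mki67 were lower in A. Bub1b, which encodes the spindle checkpoint protein BubR1, differed by -0.58 ± 0.08 (adjusted p = 0.000127). Mki67, the antigen used to mark cycling cells, read 6.98 and 7.27 in WT cells of A and 7.66 and 7.65 in WT cells of C, and over the genotypes it differed by -0.42 ± 0.10 (adjusted p = 0.0064). Cdc20, an activator of the anaphase-promoting complex, went the other way at 0.23 ± 0.08 (adjusted p = 0.0299). Top2a, the topoisomerase that untangles chromosomes, was not called at -0.22 ± 0.10 (adjusted p = 0.1).

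The D cyclins, which couple growth signals to the G1 kinases, split by gene. Ccnd1 read 6.18 to 7.59 in A and 7.37 to 8.73 in C, and was lower in A by a log2 difference of -0.92 ± 0.15 (adjusted p = 0.000284). Ccnd2 differed by -0.70 ± 0.14 (adjusted p = 0.00205). Ccnd3 read 7.75 to 9.02 in A and 7.28 to 7.98 in C and was higher in A by 0.81 ± 0.13 (adjusted p = 0.000336). E2f1, the transcription factor that drives S phase genes, was lower in A by -0.35 ± 0.07 (adjusted p = 0.0019). Neither CDK inhibitor passed: Cdkn1a, which encodes p21, differed by 0.03 ± 0.11 and Cdkn2c, which encodes p18, by -0.05 ± 0.11 (adjusted p = 0.849 and 0.771).

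Genes of the same pathway outside the set were counted from wider lists. In A, 12 of 39 wider S phase genes were lower and 1 higher, 6 of 56 mitotic genes were lower and 4 higher, and 5 of 18 G1 genes and inhibitors were lower and 2 higher. Tubb5, a beta-tubulin, differed by -0.90 ± 0.10 (adjusted p = 1.56e-05), Skp2, the ubiquitin ligase subunit that removes CDK inhibitors, by -0.72 ± 0.09 (adjusted p = 3.54e-05) and Cdk4, the partner of D cyclins, by -0.95 ± 0.13 (adjusted p = 0.00011). Cks2, a CDK subunit, was higher by 0.69 ± 0.11 (adjusted p = 0.000399), as were the inhibitor Cdkn2d by 0.44 ± 0.10 (adjusted p = 0.00339) and E2f2 by 0.36 ± 0.09 (adjusted p = 0.00532).

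T-lineage transcripts were higher in A on average over the genotypes. Cd3g and Cd3e, subunits of the T-cell receptor complex, were higher in A by 0.58 ± 0.12 and 0.67 ± 0.12 (adjusted p = 0.00146 and 0.000529), and 9 of 17 tested T-lineage and EG7 markers were higher and none lower. The mean of that list was 5.48 to 6.28 in A and 5.51 to 5.84 in C. Cd3g and Cd3e were not higher in A in each genotype. They differed by -0.41 and -0.39 in TNFR1-/- hosts and by 1.685 and 1.55 in the combined knockout, with the other genotypes between. The members called within each genotype are given further on. Other lineages also differed: 10 of 12 macrophage markers were lower in A, and 9 of 14 neutrophil and granulocyte precursor markers, 6 of 6 eosinophil and mast cell markers and 5 of 6 endothelium and fibroblast markers were higher. The part of these cells in the members' differences was not tested. With the mean of Cd3g and Cd3e of each array as a covariate, 3 of 45 members were called. Their median difference was then -0.17, against -0.14 without the covariate, which itself differed between A and C.

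S phase and mitotic genes also differed in their promoter letters, and 4 promoters are shown, those of the genes of each class with the largest difference between A and C among the genes that carry the motif of their class. Each is a RefSeq window of GRCm38.p6 from 250 bases before to 50 after the gene's start, read 5′ to 3′ on the gene's strand. Mcm3 is at chr1:20820263-20820562 on the minus strand and Cdt1 at chr8:122567765-122568064 on the plus strand, with E2F matches in capitals. Bub1b is at chr2:118597961-118598260 on the plus strand and Mki67 at chr7:135716330-135716629 on the minus strand, with CHR matches in capitals.
Mcm3: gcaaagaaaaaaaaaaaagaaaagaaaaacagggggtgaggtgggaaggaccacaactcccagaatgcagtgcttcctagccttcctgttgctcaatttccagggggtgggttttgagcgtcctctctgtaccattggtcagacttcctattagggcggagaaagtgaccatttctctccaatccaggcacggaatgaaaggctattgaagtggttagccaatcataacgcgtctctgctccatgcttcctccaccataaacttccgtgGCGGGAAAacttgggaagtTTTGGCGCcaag
Cdt1: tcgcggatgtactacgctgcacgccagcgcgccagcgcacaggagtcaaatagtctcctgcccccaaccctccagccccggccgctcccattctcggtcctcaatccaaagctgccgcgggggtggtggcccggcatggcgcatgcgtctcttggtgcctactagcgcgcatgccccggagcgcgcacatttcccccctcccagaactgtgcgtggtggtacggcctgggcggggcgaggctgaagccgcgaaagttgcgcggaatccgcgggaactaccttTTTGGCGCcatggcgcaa
Bub1b: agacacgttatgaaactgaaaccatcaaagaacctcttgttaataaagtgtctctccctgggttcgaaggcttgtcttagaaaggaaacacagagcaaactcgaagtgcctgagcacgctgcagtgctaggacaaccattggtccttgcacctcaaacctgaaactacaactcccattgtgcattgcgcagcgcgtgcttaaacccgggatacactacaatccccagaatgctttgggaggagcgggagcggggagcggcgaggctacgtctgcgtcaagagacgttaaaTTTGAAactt
Mki67: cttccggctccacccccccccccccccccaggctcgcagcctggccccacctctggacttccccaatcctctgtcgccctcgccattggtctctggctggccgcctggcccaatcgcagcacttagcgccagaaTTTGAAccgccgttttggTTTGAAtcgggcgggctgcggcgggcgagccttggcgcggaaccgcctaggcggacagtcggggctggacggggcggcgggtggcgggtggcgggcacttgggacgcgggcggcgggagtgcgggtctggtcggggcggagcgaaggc
The E2F matches of Mcm3 and Cdt1 lie after the annotated start, as does the CHR match of Bub1b, whereas the 2 CHR matches of Mki67 lie before it.

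Motifs were searched on both strands of these 300-base windows, which were found for 15 of the 17 S phase genes (17 windows) and for 18 of the 23 mitotic genes. The E2F site, as TTTCCCGC, TTTCGCGC, TTTGCCGC or TTTGGCGC, was in 7 of 17 S phase windows (41.2%) and in 1 of 18 mitotic windows (5.56%), against 2.26% of all 32851 windows. The CHR element, TTTGAA, showed the reverse order, with 12 of 18 mitotic windows (66.7%), 2 of 17 S phase windows (11.8%) and 17.9% of all windows. CCAAT was in 15 of 18 mitotic windows (83.3%), 11 of 17 S phase windows (64.7%) and 37.4% of all. No motif holds the letters of another. A match is a description of these letters and not a binding site.

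Within single genotypes, A and C differed in fewer members, with 2 arrays against 2. In WT hosts 3 of 45 members were lower in A and 1 higher, with 13.5% of all genes called in either direction. Bub1b read 5.48 and 5.41 in A and 6.59 and 6.48 in C (-1.09 ± 0.17, adjusted p = 0.00133). Mcm3 read 5.38 and 4.95 against 6.05 and 6.04 (-0.88 ± 0.23, adjusted p = 0.0217), and Pcna 8.80 and 8.49 against 9.24 and 9.27 (-0.61 ± 0.17, adjusted p = 0.0334). The Mcm3 value of 4.95 lay below the 40th percentile of its array (5.14). Cdc20 read 6.83 and 6.76 against 6.33 and 6.26 (0.50 ± 0.15, adjusted p = 0.0436). In these 4 genes the WT arrays of A and C did not overlap. The same held for members that were not called, such as Ccnb2, Mcm4 and Mki67. Cd3g and Cd3e differed between these cells by 0.245 ± 0.23 and 0.605 ± 0.23 (adjusted p = 0.517 and 0.0979). Without either C array of the WT pair 1 member was called, as with array weights.

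In TNFR1-/- hosts 12 of 45 members were lower in A and none higher, against 10.1% of all genes lower. Beside the count of none, 1 member was higher at an unadjusted p under 0.05. The 12 were 7 S phase genes, 3 mitotic genes and 2 D cyclins. Ccnd2 read 5.37 and 5.26 in A against 7.37 and 7.71 in C (-2.23 ± 0.29, adjusted p = 0.000368), and Ccnd1 6.91 and 6.18 against 8.11 and 8.51 (-1.76 ± 0.29, adjusted p = 0.0017). Mcm6, a helicase subunit, read 5.27 and 5.62 against 6.40 and 6.66 (-1.08 ± 0.23, adjusted p = 0.00659). Mki67 differed by -0.81 ± 0.20 and Top2a by -0.74 ± 0.20 (adjusted p = 0.0193 and 0.0237). Cd3g and Cd3e were at their lowest of A in these hosts, at 5.54 and 5.61 and at 6.21 and 5.95. They were also lower in mean in A than in C, by differences of -0.41 ± 0.23 and -0.39 ± 0.23 (adjusted p = 0.287 and 0.314).

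In Myd88flox/flox Tie2-Cre hosts 1 of 45 members was lower in A and none higher, with 1 member higher at an unadjusted p under 0.05 and 1.97% of all genes called. That gene was Bub1b at -0.87 ± 0.17 (adjusted p = 0.0205). In either direction, 6 members and 2720 of 16524 genes had an unadjusted p under 0.05. Cd3g and Cd3e differed by 0.815 ± 0.23 and 0.915 ± 0.23 (adjusted p = 0.0886 and 0.0588). In the combined knockout no member was called between A and C by limma, with 3 of 45 at an unadjusted p under 0.05 and 5.46% of all genes called. At that unadjusted level stood 2822 of 16524 genes. Rrm2, the small subunit of ribonucleotide reductase, differed by 0.60 ± 0.20 (adjusted p = 0.106). Cd3g and Cd3e were higher in A of the combined knockout by 1.685 ± 0.23 and 1.55 ± 0.23 (adjusted p = 0.000889 and 0.00155). Whether the genotypes differ in their gap between A and C is the same as whether the genotype effects differ between A and C, which is tested further on.

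**Figure D1:**
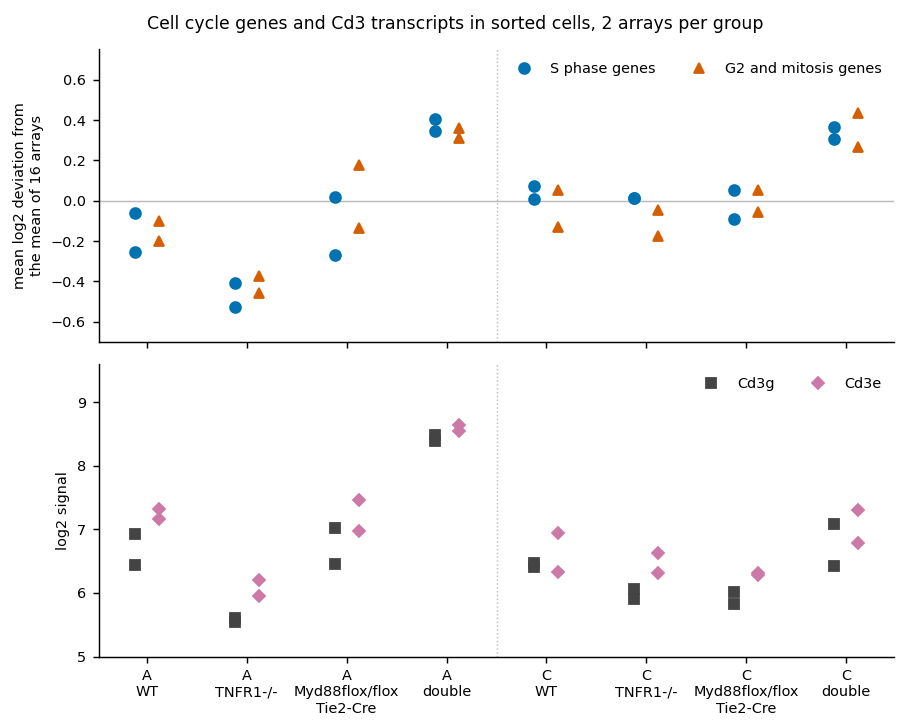
Mean log2 deviation of the S phase and of the G2 and mitosis genes from their means over the 16 sorted arrays (top) and log2 signal of Cd3g and Cd3e (bottom), 1 point per array and 2 arrays per group of population A or C. Both classes were lowest in A of TNFR1-/- hosts and highest in the combined knockout of both populations, while Cd3g was highest in A of the combined knockout at 8.39 and 8.49.

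Averaged over hosts with and without TNFR1, loss of Myd88 came with higher cell cycle genes in population A. In A, 20 of 45 members were higher and none lower when the 4 arrays with deleted Myd88 were set against the 4 with intact Myd88, against 4.19% of all genes higher. No member reached an unadjusted p under 0.05 in the lower direction. The 20 were 8 of 17 S phase genes, 11 of 21 mitotic genes and 1 of 5 G1 genes. The median difference was 0.45 in S phase genes, 0.45 in mitotic genes and 0.45 over the members, against 0.01 over all genes tested. This comparison averages 2 unlike ones. In Myd88flox/flox Tie2-Cre minus WT, 5 members were higher and 2 lower at an unadjusted p under 0.05, with 3433 of 16524 genes at that level. In the combined knockout minus TNFR1-/-, 30 were higher and none lower, with 1758 genes at that level.

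The 8 S phase genes that rose were Rrm1, Rrm2 and the 6 subunits of the replicative helicase, Mcm2, Mcm3, Mcm4, Mcm5, Mcm6 and Mcm7. Rrm1 read 6.53 and 6.15 in WT, at most 6.03 in TNFR1-/-, 6.57 and 7.23 in Myd88flox/flox Tie2-Cre and 7.51 and 7.63 in the combined knockout. The groups did not overlap, and the difference was 1.06 ± 0.14 (adjusted p = 0.00132). Mcm5 read 6.48 and 6.52 in WT, 6.37 and 5.95 in TNFR1-/- and 7.64 and 7.74 in the combined knockout, with 6.49 on the lower Myd88flox/flox Tie2-Cre array, so that 1 Myd88-deleted array lay within the intact range (0.89 ± 0.15, adjusted p = 0.0052). Rrm2 rose by 0.83 ± 0.14 and Mcm6 by 0.90 ± 0.16 (adjusted p = 0.00646 and 0.00785). Pcna rose in mean by 0.45 ± 0.12 and missed the threshold (adjusted p = 0.0514).

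Among the mitotic genes, Mad2l1, a spindle checkpoint protein, read 6.17 and 5.90 in WT, 5.75 and 5.49 in TNFR1-/-, 6.30 and 6.72 in Myd88flox/flox Tie2-Cre and 6.98 and 6.98 in the combined knockout. Its groups did not overlap (0.92 ± 0.13, adjusted p = 0.00201). Ccnb2, a B-type cyclin, rose by 0.88 ± 0.13 (adjusted p = 0.00238) and Kif11, the motor that separates spindle poles, by 0.80 ± 0.14 (adjusted p = 0.00875). Mki67 read 6.98, 7.27, 6.81 and 6.46 in A with intact Myd88 and 7.34, 7.73, 7.81 and 7.72 with deleted Myd88 (0.77 ± 0.14, adjusted p = 0.00991), again without overlap. Top2a rose by 0.73 ± 0.14 (adjusted p = 0.0101). The remaining 6 were Bub1, Cdk1, Ccna2, Plk1, Nusap1 and Bub1b, which encode a checkpoint kinase, the mitotic kinase, cyclin A2, polo-like kinase 1, a spindle protein and BubR1.

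Ccnd2 was the G1 gene that rose, by 1.26 ± 0.21 (adjusted p = 0.00501). It read 6.56 and 6.17 in WT, 5.37 and 5.26 in TNFR1-/-, 5.95 and 7.08 in Myd88flox/flox Tie2-Cre and 7.57 and 7.79 in the combined knockout, and the groups overlapped. Ccnd1 differed by 0.58 ± 0.21 and Ccnd3 by 0.12 ± 0.19 (adjusted p = 0.119 and 0.754). Cdkn1a differed by 0.19 ± 0.16 and Cdkn2c by 0.10 ± 0.15 (adjusted p = 0.504 and 0.732). In the wider lists 4 of 39 S phase, 4 of 56 mitotic and 4 of 18 G1 genes were higher and none lower. They included Asf1b, a histone chaperone (0.92 ± 0.12, adjusted p = 0.00141), Tfdp1, the partner of E2F (0.74 ± 0.10, adjusted p = 0.0022) and Smc4, a condensin subunit (0.95 ± 0.14, adjusted p = 0.00238).

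Cd3g and Cd3e rose in the same comparison, by 1.46 ± 0.16 and 1.25 ± 0.16 (adjusted p = 0.000651 and 0.00132). Of the T-lineage and EG7 markers 4 of 17 were higher, and their mean was 5.48 to 6.02 with intact and 5.68 to 6.28 with deleted Myd88. The EG7 marker Trap1a stayed low, at 4.05 to 5.09 with intact and 4.24 to 4.83 with deleted Myd88, and Rhox5, another, read 5.38 to 5.73 and 5.38 to 6.29. Of the macrophage markers 5 of 12 were higher, with a mean of 8.19 to 8.87 with intact and 8.93 to 9.89 with deleted Myd88, and 3 of 6 endothelium and fibroblast markers were higher. Their part in the members' differences was not tested. With the Cd3 covariate no member and no other gene was called in A by limma, and the members' median difference was 0.27. In A the Cd3 values differed more between genotypes than within them, so the covariate and the genotype cannot be told apart there.

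WT and Myd88flox/flox Tie2-Cre cells of A had like Cd3 values, and this pair was singled out after those values were seen. Cd3g was 6.44 and 6.93 in WT and 6.46 and 7.02 in Myd88flox/flox Tie2-Cre cells of A, and Cd3g and Cd3e differed by 0.06 ± 0.23 and -0.02 ± 0.23 (adjusted p = 0.92 and 0.971). Between these groups 2 of 45 members were higher and 1 lower, against 2.47% of all genes higher. Bub1b read 5.48 and 5.41 in WT and 5.90 and 6.32 in Myd88flox/flox Tie2-Cre cells (0.67 ± 0.17, adjusted p = 0.0457), and Ccnb2 6.88 and 6.85 against 7.30 and 7.83 (0.70 ± 0.18, adjusted p = 0.0498). Cdc6, a helicase loader, was lower, at 5.83 and 5.37 against 4.77 and 4.77 (-0.83 ± 0.20, adjusted p = 0.0414). Both Myd88flox/flox Tie2-Cre values of Cdc6 lay below the 40th percentile of their arrays (5.03 and 5.0), so its difference is set against a signal near background. The median difference of the 45 members was 0.13. Mki67 differed by 0.41 ± 0.20 and Rrm1 by 0.56 ± 0.19 (adjusted p = 0.272 and 0.122). In the same pair 5 of 12 macrophage markers were higher.

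The count of 20 in A changed with the arrays used. Without the second Myd88flox/flox Tie2-Cre array of A 8 members were called, and without the first TNFR1-/- array of A 13. With array weights, which were equal for both arrays of each group, 13 were called. A fit of the 8 arrays of A alone, with 4 residual degrees of freedom, called none of the 45 members and 37 genes in all.

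In population C the same deletion called no member, with 11 of 45 at an unadjusted p under 0.05, all higher, and with 0.0182% of all genes called. Of all 16524 genes, 771 reached that unadjusted p. The median difference was 0.15, with 0.10 in S phase and 0.27 in mitotic genes. Ccnb2 differed by 0.40 ± 0.13 and Kif20a, a motor of cytokinesis, by 0.40 ± 0.13 (adjusted p = 0.758 and 0.768). Rrm1 differed by 0.38 ± 0.14 and Rrm2 by 0.33 ± 0.14 (adjusted p = 0.908 and 0.998). Mki67 differed by 0.27 ± 0.14, Top2a by 0.14 ± 0.14, Mcm5 by 0.04 ± 0.15 and Pcna by 0.04 ± 0.12 (adjusted p = 0.998 for each). Cd3g and Cd3e differed by 0.13 ± 0.16 and 0.12 ± 0.16. Of the D cyclins, Ccnd1 differed by 0.02 ± 0.21, Ccnd2 by -0.06 ± 0.21 and Ccnd3 by -0.02 ± 0.19.

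The test of the difference itself did not separate A from C. No member was called for the Myd88 effect in A minus that in C by limma, with 15 of 45 at an unadjusted p under 0.05, all larger in A, and 0% of all genes called. At that unadjusted level stood 1532 of 16524 genes. The median of that difference was 0.27 over the members and 0.02 over all genes tested. It was 1.31 ± 0.29 for Ccnd2, 0.85 ± 0.21 for Mcm5 and 0.80 ± 0.23 for Mcm6 (adjusted p = 0.224, 0.254 and 0.347). Among mitotic genes it was 0.57 ± 0.18 for Mad2l1 and 0.59 ± 0.20 for Top2a (adjusted p = 0.412 and 0.444). The same difference was 1.33 ± 0.23 for Cd3g and 1.12 ± 0.23 for Cd3e (adjusted p = 0.101 and 0.165). Without the first Myd88flox/flox Tie2-Cre array of A 1 member was called.

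**Figure D2:**
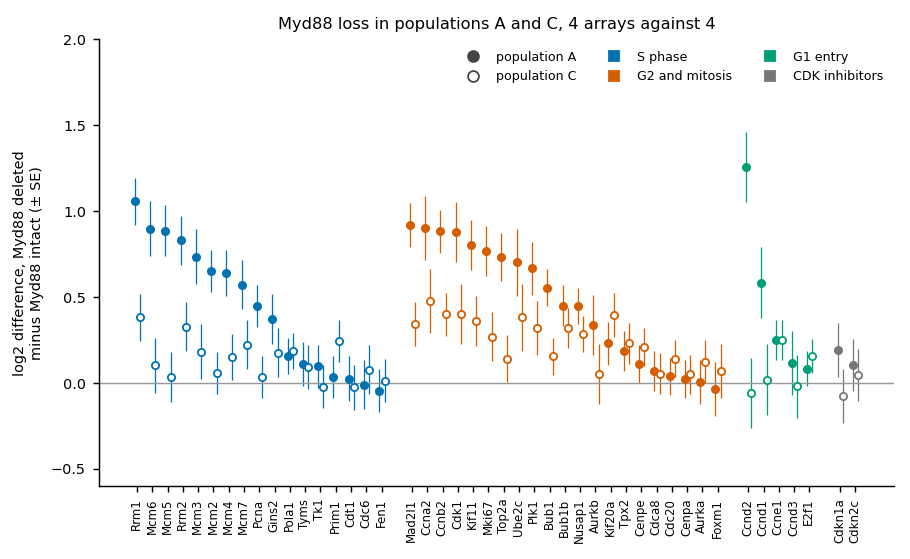
Log2 difference, Myd88 deleted minus intact with its standard error, for each of the 45 members tested, in population A (filled) and population C (open), 4 arrays against 4, ordered by role. In A the differences run from -0.04 to 1.26 and in C from -0.07 to 0.48.

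Loss of TNFR1 gave few calls. In A no member was called, with 3 of 45 at an unadjusted p under 0.05, all higher, and with 0.182% of all genes called. Of all 16524 genes, 2287 reached that unadjusted p. The members' median was 0.05. Ccnd3 differed by 0.50 ± 0.19, Rrm2 by 0.34 ± 0.14 and Cdt1 by 0.29 ± 0.13 (adjusted p = 0.253, 0.304 and 0.334). Mki67 differed by -0.13 ± 0.14 and Top2a by 0.10 ± 0.14. This comparison averages TNFR1-/- hosts, where the members were low, with the combined knockout, where they were high.

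In C, TNFR1 loss raised Ccnd2 and lowered Bub1b among the 45 members, against 1.09% of all genes called. Ccnd2 read 6.97, 6.74, 6.03 and 6.39 with intact TNFR1 and 7.37, 7.71, 7.87 and 8.27 without it (1.27 ± 0.21, adjusted p = 0.00607). Bub1b read 6.59, 6.48, 7.14 and 6.82 with intact TNFR1 and 6.03, 5.77, 6.11 and 6.08 without it (-0.76 ± 0.12, adjusted p = 0.00465). Neither gene's groups overlapped. Ccnd1 differed by 0.79 ± 0.21 and Ccnd3 by 0.48 ± 0.19 (adjusted p = 0.117 and 0.464), Mcm4 by 0.41 ± 0.13 (adjusted p = 0.291) and Cdkn1a by 0.34 ± 0.16 (adjusted p = 0.667). Cd3g and Cd3e differed by 0.19 ± 0.16 and 0.29 ± 0.16 (adjusted p = 0.984 and 0.841). Other markers rose without overlap in the same comparison: Ccr7, a receptor of migrating dendritic cells, by 1.88 ± 0.20, Klrd1, of natural killer cells, by 1.03 ± 0.16 and Cd79b, of B lymphocytes, by 0.81 ± 0.16 (adjusted p = 0.000238, 0.00495 and 0.0219). They were 1 of 6, 1 of 4 and 1 of 3 tested markers of their lists, and their part in the calls was not tested. Without the first Myd88flox/flox Tie2-Cre array of C 1 member was called, Bub1b, and Ccnd2 was at 1.18 (adjusted p = 0.0506). With array weights 4 members were called, and in a fit of the 8 arrays of C alone 5.

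For the TNFR1 effect in A minus that in C no member was called, with 3 of 45 at an unadjusted p under 0.05 and 0.103% of all genes called. At that unadjusted level stood 1074 of 16524 genes. The values were 0.80 ± 0.17 for Bub1b and -1.22 ± 0.29 for Ccnd2 (adjusted p = 0.132 and 0.253). Without the first Myd88flox/flox Tie2-Cre array of A 1 member was called. Against WT alone, TNFR1-/- cells of A had no member called, with 12 of 45 at an unadjusted p under 0.05, all lower, and 0.654% of all genes called. Of all 16524 genes, 3096 reached that unadjusted p in either direction. Cdk1 read 5.44 and 5.65 against 6.97 and 6.18 (-1.03 ± 0.25, adjusted p = 0.0624), and Ccnd2 differed by -1.05 ± 0.29 (adjusted p = 0.0841). Cdc6 differed by -0.83 ± 0.20 (adjusted p = 0.0631), with a TNFR1-/- mean of 4.765, below the 40th percentile of those arrays (5.08 and 5.04). Cd3g and Cd3e were lower in the same cells by -1.11 ± 0.23 and -1.16 ± 0.23 (adjusted p = 0.0491 and 0.0431).

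The combined knockout held the highest cell cycle values among the sorted cells. These contrasts were chosen after the values had been seen. In A, 16 of 45 members were higher than in WT and none lower, against 4.33% of all genes higher, with no member lower at an unadjusted p under 0.05. The 16 were 8 S phase genes, 7 mitotic genes and Ccnd2. Rrm1 rose by 1.23 ± 0.19 (adjusted p = 0.0117), Rrm2 by 1.17 ± 0.20 and Mcm5 by 1.19 ± 0.21 (adjusted p = 0.0134 for each), and Mcm2 by 0.88 ± 0.17 (adjusted p = 0.0193). Ccnb2 and Mad2l1 rose by 0.94 ± 0.18 each (adjusted p = 0.0175), Kif11 by 0.98 ± 0.20 (adjusted p = 0.0221) and Top2a by 0.83 ± 0.20 (adjusted p = 0.0313). In each of these 8 genes the arrays of the groups did not overlap, and the share of all genes without overlap was not counted. Cd3g rose by 1.75 ± 0.23 and Cd3e by 1.35 ± 0.23 (adjusted p = 0.00705 and 0.0134), and 5 of 17 T-lineage and EG7 markers were higher. Of the eosinophil and mast cell markers 2 of 6 were higher, with a mean of 5.42 to 5.94 in WT and 6.22 to 7.07 in the combined knockout. Of the neutrophil and granulocyte precursor markers 1 of 14 was higher and 1 lower, and 1 of 4 natural killer cell markers was lower. The part of these cells was not tested.

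This count was 0 without the first combined knockout array of A, 8 without the second, 10 without the second WT array of A and 9 without either Myd88flox/flox Tie2-Cre array of C. It was 0 with array weights, with the Cd3 covariate and in a fit of the groups of the contrast alone.

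Against TNFR1-/- cells of A, which share that deletion, 18 of 45 members were higher and none lower, also at an unadjusted p under 0.05, against 1.28% of all genes higher. Ccnd2 rose by 2.37 ± 0.29 (adjusted p = 0.00134), Cdk1 by 1.80 ± 0.25 (adjusted p = 0.00213), Mcm6 by 1.67 ± 0.23 (adjusted p = 0.00198) and Rrm2 by 1.57 ± 0.20 (adjusted p = 0.00162). Mki67 read 6.81 and 6.46 in TNFR1-/- and 7.81 and 7.72 in the combined knockout (1.13 ± 0.20, adjusted p = 0.0146). All 45 differences were positive, with a median of 0.69 against 0.03 over all genes tested. Cd3g and Cd3e rose by 2.87 ± 0.23 and 2.52 ± 0.23 (adjusted p = 0.000105 and 0.000139). Of the endothelium and fibroblast markers 3 of 6 were higher, with a mean of 5.65 to 5.73 in TNFR1-/- and 6.44 to 6.74 in the combined knockout, and 1 of 6 eosinophil and mast cell markers was higher. The part of these cells was not tested either. The count was 8 without the second TNFR1-/- array of A, 10 and 9 without either combined knockout array of A, and 0 with the Cd3 covariate or with the groups of the contrast alone. This comparison shares the combined knockout arrays with the one against WT.

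In C the combined knockout called no member against WT, with 17 of 45 at an unadjusted p under 0.05, 16 of them higher, and 0.309% of all genes called. Against TNFR1-/- it also called none, with 19 of 45 at an unadjusted p under 0.05, all higher, and 0.00605% of all genes called. At that unadjusted level stood 1019 of 16524 genes against WT and 572 against TNFR1-/-. The medians were 0.35 and 0.39, against 0.00 and 0.02 over all genes tested. Nusap1 read 5.95 and 5.74 in WT and 6.56 and 6.52 in the combined knockout (0.69 ± 0.15, adjusted p = 0.0869). Rrm1 read 6.86 and 6.82 against 7.68 and 7.57 (0.79 ± 0.19, adjusted p = 0.158), and Ccnd2 6.97 and 6.74 against 7.87 and 8.27 (1.22 ± 0.29, adjusted p = 0.138). None of these overlapped between the groups, and the share of all genes without overlap was not counted. In a fit of the groups of the contrast alone 4 members were called against WT, and without either Myd88flox/flox Tie2-Cre array of A 1.

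T-lineage and other markers of these groups of C stand beside these values. Cd3g read 6.41 and 6.47 in WT cells of C and 6.42 and 7.09 in the combined knockout, a difference of 0.32 ± 0.23 (adjusted p = 0.998). Cd3e read 6.33 and 6.94 against 6.78 and 7.31 (0.41 ± 0.23, adjusted p = 0.924). The mean of the dendritic cell markers was 6.26 to 6.30 in WT and 6.73 to 6.84 in the combined knockout, and that of the B lymphocyte markers 4.99 to 5.17 and 5.30 to 5.75, without overlap in either list. Of their genes only Ccr7 was called, at 1.90 ± 0.28 (adjusted p = 0.00731). Their part in the members' differences was not tested. The first combined knockout array of C, at a Cd3g of 6.42 within the WT range, had the highest mean of the members among the 16 sorted arrays, at 0.405 above the average of the arrays, against -0.055 and 0.028 in WT cells of C.

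The rise from the combined deletion was compared with the sum of the single effects in A. No member was called by limma, with 22 of 45 at an unadjusted p under 0.05, all above the sum, and 0.0726% of all genes called. Of all 16524 genes, 1714 reached that unadjusted p. The departure was 1.64 ± 0.28 for Cdc6, 2.21 ± 0.41 for Ccnd2 and 1.85 ± 0.35 for Cdk1 (adjusted p = 0.0604, 0.0728 and 0.0787). For Cdc6 the means of TNFR1-/- and Myd88flox/flox Tie2-Cre cells, 4.765 and 4.77, lay below the 40th percentile of those arrays (5.0 to 5.08). The departure was called for Cd3g at 2.81 ± 0.33 and for Cd3e at 2.54 ± 0.33 (adjusted p = 0.00492 and 0.011). Without the second WT array of A 9 members were called, without the second Myd88flox/flox Tie2-Cre array or the first combined knockout array of A 2, and without the first TNFR1-/- array of A 1. For the combined knockout minus TNFR1-/-, the difference between A and C called no member, with 16 of 45 at an unadjusted p under 0.05, all larger in A, and 0% of all genes called. At that unadjusted level stood 729 of 16524 genes.

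**Figure D3:**
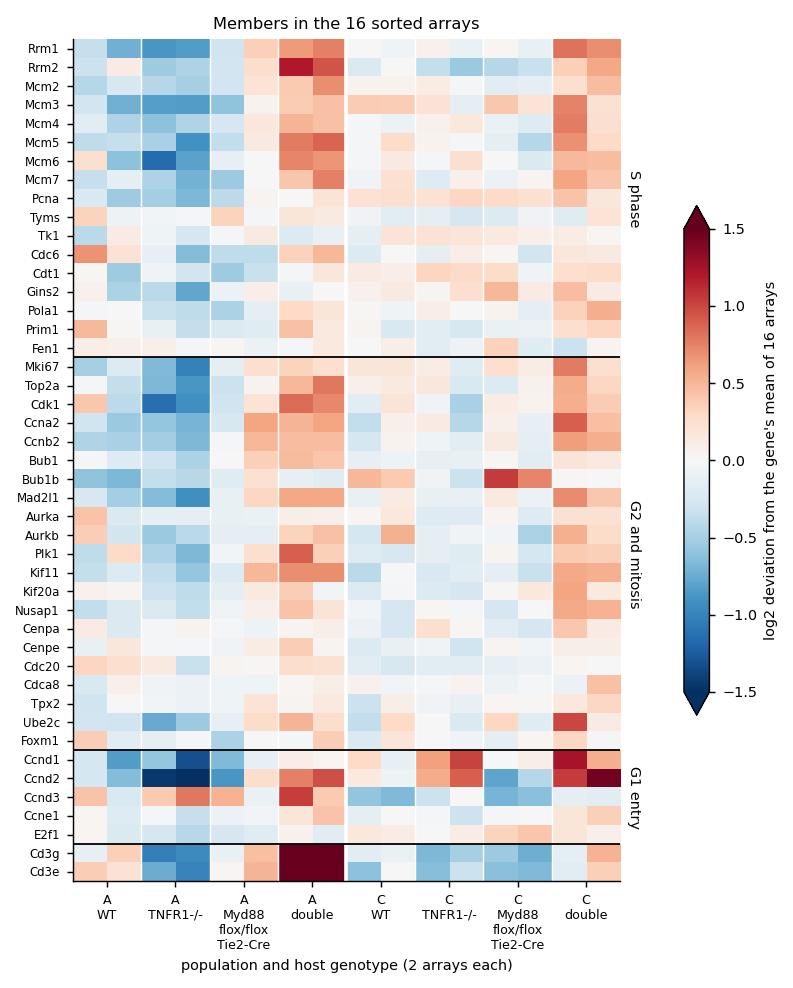
Log2 deviation of each S phase, G2 and mitosis and G1 gene tested, and of Cd3g and Cd3e at the bottom, from its mean over the 16 sorted arrays, with 2 columns per population and genotype; colours are capped at the ends of the scale. The columns of TNFR1-/- cells of A are the lowest and those of the combined knockout the highest in most S phase and mitotic genes. Bub1b and Ccnd3 follow patterns of their own. Ccnd1 and Ccnd2 have their lowest group mean in TNFR1-/- cells of A and their highest in C of the combined knockout.

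In CD11b+ cells enriched from EG7 tumours, Myd88-/- hosts did not change the cell cycle genes past the threshold. No member of 46 was called by limma with 5 arrays against 5, 5 members had an unadjusted p under 0.05, and 1.48% of all genes were called. Of all 11916 genes tested, 1487 had an unadjusted p under 0.05. The median difference was 0.03 over the members, 0.03 in S phase genes and 0.09 in mitotic genes, against 0.01 over all genes tested. Mki67 read 8.83, 8.77, 8.79, 8.65 and 9.01 in WT hosts and 8.13, 8.34, 8.78, 8.44 and 8.37 in Myd88-/- hosts. The ranges overlapped, and the difference was -0.40 ± 0.11 (adjusted p = 0.132). Without the third Myd88-/- array 1 member was called. Fen1, the nuclease that trims Okazaki fragments, differed by 0.33 ± 0.11 and Cenpa, the centromeric histone, by 0.27 ± 0.09 (adjusted p = 0.2 and 0.19).

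Mcm5, Pcna and Top2a overlapped between the hosts. Mcm5 read 6.16 to 6.84 in WT and 6.28 to 6.82 in Myd88-/- hosts, Pcna 10.89 to 11.10 and 10.97 to 11.14, and Top2a 6.99 to 7.73 and 6.97 to 7.82. Their differences were 0.12 ± 0.14, 0.04 ± 0.07 and -0.02 ± 0.18 (adjusted p = 0.82, 0.887 and 0.979). The D cyclins differed by -0.37 ± 0.13 for Ccnd1, -0.25 ± 0.11 for Ccnd2 and -0.21 ± 0.10 for Ccnd3 (adjusted p = 0.252, 0.38 and 0.431), and Cdkn1a by -0.12 ± 0.12 (adjusted p = 0.775). Cd3g and Cd3e differed by 0.01 ± 0.17 and 0.06 ± 0.11. The wider lists held no called gene of 43 S phase, 67 mitotic and 17 G1 genes.

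Between tumour models, 1 of 47 members was called with 3 arrays against 3, while 14.7% of all genes were. At an unadjusted p under 0.05 there were 9 of 47 members and 3786 of 12576 genes. The called member was Mcm3, at 6.45, 7.43 and 7.55 in cells from neuroblastoma against 8.51, 8.34 and 8.20 in cells from EG7 thymoma (-1.21 ± 0.31, adjusted p = 0.0446). With a replicate block Mcm3 was no longer called. The median difference, neuroblastoma minus EG7, was -0.45 in S phase genes, -0.01 in mitotic genes and -0.49 in G1 genes, against -0.01 over all genes tested. Ube2c, the ubiquitin-conjugating enzyme of the anaphase-promoting complex, was higher in mean in neuroblastoma by 1.02 ± 0.36 and Ccnd1 by 0.88 ± 0.29 (adjusted p = 0.113 and 0.0941), and Ccnd2 lower by a difference of -1.38 ± 0.48 (adjusted p = 0.11). In the wider lists Cdkn1c, the CDK inhibitor p57, was higher by 2.35 ± 0.19, and Myb, Cdk6 and Gins3 were lower by differences of -4.03 ± 0.20, -2.63 ± 0.21 and -1.70 ± 0.21 (adjusted p = 0.00086, 0.000166, 0.000825 and 0.00399). Myb read 3.35, 3.28 and 3.75 in neuroblastoma, near the 40th percentile of those arrays (3.44 to 3.48), so the size of its difference is set against a signal near background.

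Several members differed more among the arrays of a tumour model than between the models. Mki67 was at 8.40, 6.89 and 8.76 on the neuroblastoma arrays and at 8.84 and 9.54 on the first and the third EG7 array, with the second array the lowest of each model (-0.44 ± 0.75, adjusted p = 0.739). Bub1 and Cenpe, a checkpoint kinase and a kinetochore motor, showed the same dip, with 5.55 and 5.32 for Bub1 and 3.86 and 4.20 for Cenpe on the second arrays. The dip was not confined to mitotic genes. On those arrays the S phase gene Pola1 read 5.14 and 5.11, and Hells of the wider S phase list 4.69 and 5.01, each the lowest of its model. Mcm5 read 6.86, 7.55 and 8.26 against 8.50, 8.40 and 8.07, and Pcna 11.83, 12.11 and 12.50 against 12.08, 12.16 and 12.10. The third neuroblastoma array was the highest of its group in S phase and mitotic means, at 0.454 and 0.809 above the average, against -0.75 and -0.42 on the first and -0.275 and -0.362 on the second. On EG7 arrays the S phase means were 0.308, 0.096 and 0.167 and the mitotic means 0.12, -0.336 and 0.189.

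Markers of the tumours differed between the models. Cd3g was at 3.01, 5.33 and 3.62 in neuroblastoma against 9.47, 9.04 and 9.22 in EG7 cells (-5.26 ± 0.56, adjusted p = 0.00241), and 12 of 19 T-lineage and EG7 markers were lower in neuroblastoma and none higher. Their mean was 3.69 to 4.67 against 6.36 to 6.55. Of the neuroblastoma and sympathetic neuron markers 10 of 13 were higher, with a mean of 7.47 to 8.43 against 3.93 to 4.06, and the highest value was on the third neuroblastoma array. The second neuroblastoma array, with the highest Cd3g of its group, also stood apart in natural killer and B lymphocyte markers. Their means were 6.60 and 6.73 there, against 3.27 and 4.55 on the first and 4.06 and 5.88 on the third. The part of these cells in the members' levels was not tested. Without the third neuroblastoma array 4 members were called, without the second 3, and without any 1 EG7 array none. The counts of all genes called in these fits are not given here.

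**Figure D4:**
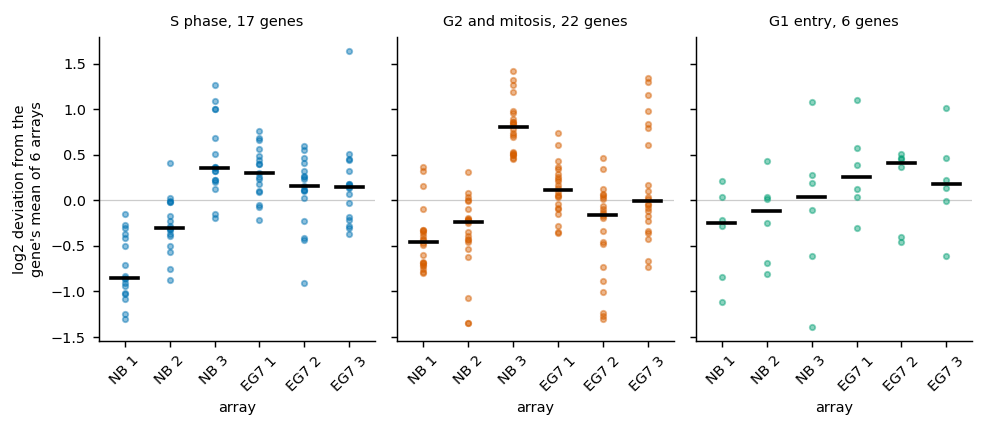
Log2 deviation of each S phase, G2 and mitosis and G1 gene from its mean over the 6 tumour model arrays, with 1 point per gene and a black bar at the median, for 3 neuroblastoma (NB) and 3 EG7 thymoma arrays. The third neuroblastoma array stands above the other 2 of its group in S phase and mitotic genes. A group of mitotic genes, and the S phase gene Pola1, lie low on the second array of each model.

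S phase and mitotic genes were set against each other on each array as the difference of their mean deviations. In sorted cells this difference was -0.158 to 0.094 in A and -0.067 to 0.185 in C, whereas the S phase mean itself ran from -0.526 to 0.407 in A and from -0.091 to 0.366 in C. In the Myd88 experiment it was -0.013 to 0.089 in WT and -0.189 to 0.047 in Myd88-/- hosts, where the third array stood apart with a mitotic mean of 0.424 and an S phase mean of 0.235. Between tumour models it was widest, at -0.33, 0.087 and -0.355 in neuroblastoma and 0.188, 0.432 and -0.022 in EG7 cells. In C outside the combined knockout the S phase means lay within -0.091 to 0.073 and the mitotic means within -0.173 to 0.055, so the gap of up to 0.185 was not small beside the spread of either class. No test was made on these means.

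Each array's cell cycle values were then set beside Cd3g and Cd3e. In the 10 arrays of the Myd88 experiment, 44 of 46 members had a positive Pearson r with Cd3g, with a median of 0.61 (Spearman's rho 0.56), against a median of 0.04 over all genes tested. Without the 2 arrays farthest from the median of Cd3g, which were the first and the third WT array, the median was 0.41. On deviations from the group means it was 0.64. With Cd3e the median r was 0.29 against -0.01 over all genes, and 0.49 without the 2 farthest arrays. The points share their arrays, and genes are not independent replicates. For Top2a, r with Cd3g was 0.69 (permutation p = 0.0295, adjusted p = 0.531) and rho 0.56 (permutation p = 0.0949, adjusted p = 0.655), with r = 0.62 without the 2 farthest arrays. Mcm5 gave r = 0.63 (permutation p = 0.0545, adjusted p = 0.573), rho = 0.56 (permutation p = 0.0947, adjusted p = 0.655) and r = 0.45 without them. Mki67 gave r = 0.11 (permutation p = 0.763, adjusted p = 0.963), rho = -0.04 (permutation p = 0.919, adjusted p = 0.995) and r = 0.68 without them. No member and no other gene passed after adjustment over all genes tested.

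In population A the 8 arrays lay in steps of genotype. Cd3g was 5.54 and 5.61 in TNFR1-/-, 6.44 to 7.02 in WT and Myd88flox/flox Tie2-Cre, and 8.39 and 8.49 in the combined knockout, and the members' mean followed the same steps, at -0.371 and -0.479, -0.246 to 0.087, and 0.363 and 0.333. All 45 members had a positive r with Cd3g, with a median of 0.79, which cannot be told apart from genotype. Over the 6 arrays without the combined knockout the median was 0.60, and on deviations from the group means, which remove genotype, it was 0.27, with 28 of 45 positive. With Cd3e these medians were 0.84, 0.69 and 0.60, with 40 of 45 positive on deviations. With 2 arrays per genotype the deviations mirror each other within a pair. For Cd3g they rest mostly on the WT pair (6.44 and 6.93) and the Myd88flox/flox Tie2-Cre pair (6.46 and 7.02). In C the median r was 0.51 with Cd3g and 0.50 with Cd3e, without the 2 farthest arrays 0.27 and 0.63, and on deviations -0.10 and -0.01. Exact permutation tests called no member of A or C with either gene after adjustment over all genes tested. With 8 arrays the smallest p they can give is 2.48e-05, which over this many genes leaves little room for a call. Ccnd2 with Cd3e in A was at that limit and had an adjusted p of 0.0683 (r = 0.98, r = 0.94 without the 2 farthest arrays, exact permutation test).

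**Figure D5:**
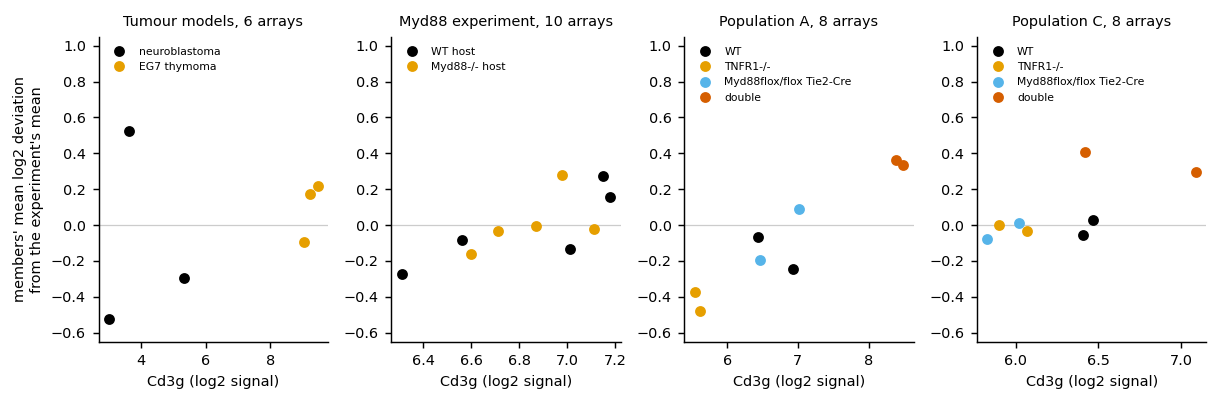
Mean log2 deviation of the members from the experiment's mean against the log2 signal of Cd3g, 1 point per array, for the tumour models, the Myd88 experiment and populations A and C. In A the points climb in steps of genotype from TNFR1-/- to the combined knockout, in C the combined knockout arrays lie highest at Cd3g values of 6.42 and 7.09, and the third neuroblastoma array has a high mean at a Cd3g of 3.62.

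A linear slope on the mean of Cd3g and Cd3e, fitted with limma beside the groups, gave the same picture for single genes. Its median was 0.59 over the 46 members of the Myd88 experiment against 0.01 over all genes tested, and 0.10 over the 45 members in sorted cells against 0.01. No member had a called slope in either fit. In the Myd88 experiment 7 genes outside the members did, all positive. Cd3g and Cd3e, which make up the covariate, were not left out of that count.

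Outside the set, the genes whose pattern over the 16 sorted arrays was most like that of Mki67 were Ide, the insulin-degrading enzyme (r = 0.938), Mtap, an enzyme of methionine salvage (r = 0.913), Asf1b (r = 0.904), Hadh, an enzyme of fatty acid oxidation (r = 0.904), and Smyd2, a lysine methyltransferase (r = 0.899). Asf1b is in the wider S phase list. The most alike member was Mad2l1, at r = 0.904, level with Asf1b and Hadh. These values describe 16 arrays that share genotype and population, and carry no test.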

How the data were processed

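RNA (100 ng per the labels' protocols) was hybridised to HT_MG-430_PM chips (16 bead-enriched samples) and Mouse Gene 2.0 ST chips (16 sorted samples). The deposited values are log2 signals. The submitters' processing notes name RMA and Affymetrix Expression Console 1.1. The sources used here do not say which arrays the authors normalized together. RMA sets arrays to a common distribution, so a shift of all genes cannot be seen. Array medians were 2.95 to 3.93 on the first chip and 5.31 to 5.50 on the second.

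Probe sets with 1 gene symbol in the platform annotation were used, taking the one of highest mean per gene. A gene was tested if it exceeded the 40th percentile of the array on a number of arrays no smaller than the smallest group. The tests were made with limma 3.58.1 (lmFit and eBayes, R 4.3.3) and Benjamini-Hochberg adjustment over all genes tested, called at an adjusted p under 0.05. The tumour models (3 against 3) and the Myd88 experiment (5 against 5) were fitted apart. The 16 sorted arrays entered 1 fit of 8 groups of 2, which leaves 8 residual degrees of freedom. The script was tested on simulated data. The number of arrays limits the precision. Errors are standard errors of the fit unless stated. Where groups are said not to overlap, the share over all genes was not counted.

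Pearson's r and Spearman's rho with Cd3g and Cd3e had exact permutation tests over 40320 orders for 8 arrays and permutation tests with 100000 resamples for 10, two-sided, with Python 3.11.15, NumPy 2.4.6 and pandas 2.3.3. Promoters came from RefSeq windows of GRCm38.p6.

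The members and lists were chosen with earlier results of these data known. In each comparison the genes named were, per role and direction, the 4 or fewer called members with the smallest adjusted p, or the 2 of smallest p where none was called. Mki67, Top2a, Mcm5, Pcna, the D cyclins and Cdkn1a were fixed examples, with Cd3g and Cd3e beside them, and others are named to show single values. Contrasts with the combined knockout, and their alternatives, were chosen after the values had been seen. Alternatives were another probe set rule, other filters, quantile normalization, a trended prior, array weights, the Cd3 covariate, only the groups of the contrast, a replicate block and leaving out each array. Counts under these alternatives are of members, mostly without the count of all genes called. They therefore do not show whether members moved or the whole fit called more or fewer genes.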

Additional observations from a re-analysis of the deposited data

How the results depend on the processing

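Of 358 alternative values for 21 counts and medians, 306 stayed near the main value and 52 moved. Near meant within 1.5 times it for counts and within a fixed margin of it for medians. For single genes, 5141 of 5349 alternative values stayed on the same side of the threshold, 161 fell below it and 42 passed it. A change of direction was counted only where the main or the alternative fit called the gene. It occurred in 5 values, all 5 with the mean of Cd3g and Cd3e as a covariate. These were Kif11 for Myd88 loss in A (-0.08), Ccnd2 (-0.06) and Kif11 (-0.03) for the combined knockout minus WT in A, and Ccnd2 (-0.02) and Ccnb2 (-0.03) for the combined knockout minus TNFR1-/- in A. The cause was not tested.

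With that covariate the members called were 3 for A minus C over 4 genotypes, 1 for A minus C in WT hosts, and 0 for Myd88 loss in A, the combined knockout minus WT in A and the combined knockout minus TNFR1-/- in A. In the same order, the members' median differences were -0.17, -0.22, 0.27, 0.27 and 0.52. In the main fit they were -0.14, -0.14, 0.45, 0.49 and 0.69. With array weights the counts were 1 for A minus C in WT hosts, 4 for TNFR1 loss in C, 13 for Myd88 loss in A and 0 for the combined knockout minus WT in A. Both arrays of a sorted group had the same weight, so this setting weighs groups and cannot single out an array. The weight was lowest for WT cells of A, at 0.331, and highest for Myd88flox/flox Tie2-Cre cells of C, at 1.651. In fits of only the groups of the contrast, with fewer arrays, they were 1 for A minus C in WT hosts, 5 for TNFR1 loss in C, 0 for Myd88 loss in A, 0 and 4 for the combined knockout minus WT in A and in C, and 0 for the combined knockout minus TNFR1-/- in A. A trended robust prior called 1 member for the departure from the sum in A. Between tumour models the mean of all probe sets called 2 members and no filter 0. Without the combined knockout groups 15 members were called for A minus C.

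Leaving out each array in turn gave 0 to 4 members between tumour models, 0 to 1 between Myd88-/- and WT hosts, 11 to 17 for A minus C over the genotypes and 1 to 6 in WT hosts. It gave 1 to 2 for TNFR1 loss in C, 8 to 23 for Myd88 loss in A, and 0 to 1 for either genotype effect in A minus C. It gave 0 to 18 and 0 to 1 for the combined knockout minus WT in A and C, 8 to 22 for it minus TNFR1-/- in A, and 0 to 9 for the departure from the sum in A. Without the 2 farthest arrays the median r was 0.41 with Cd3g and 0.49 with Cd3e in the Myd88 experiment, 0.60 and 0.69 in A, and 0.27 and 0.63 in C.

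The labels do not say whether replicate numbers pair the samples. Deviations of same-numbered arrays had correlations of -0.05 to 0.22 in the tumour models. The range was -0.25 to 0.23 between Myd88-/- and WT hosts and -0.50 to 0.37 among sorted cells, where the deviations of a group's arrays mirror each other. These values do not settle whether the samples are paired. With a replicate block the members called were 0 between tumour models, 0 between Myd88-/- and WT hosts, 13 for A minus C over the genotypes, 4 in WT hosts, 2 for TNFR1 loss in C, 19 for Myd88 loss in A, 14 and 17 for the combined knockout in A against WT and TNFR1-/-, and 0 for the other contrasts of sorted cells that were fitted with it.

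Signals near the floor, such as Birc5 in sorted cells, Trap1a, and Cdc6 and Mcm3 in part of population A, limit what can be seen in low genes.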
